A study of Mus musculus with 4 samples.

Results

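Basic leucine zipper (bZIP) transcription factors of the AP-1 group were followed in bone marrow-derived macrophages (BMDMs) by RNA sequencing. The 10 genes were Jun, Junb, Jund, Fos, Fosb, Fosl2, Atf3, Batf3, Maff and Mafk, chosen by symbol and found as 10 of the 21878 genes listed. All 10 had enough reads to be tested, as did 12494 genes in all. The macrophages came from C57BL/6 mice, labelled 8 weeks old, of genotype WT or anti-Act1, and both genotypes were cocultured with MC38 cells, a mouse colon carcinoma line. Anti-Act1 mice carry a knockdown of Act1, the IL-17 receptor adaptor encoded by Traf3ip2, that the study describes as macrophage-specific. Each genotype had 2 libraries, and the study calls them biological replicates, while the labels do not say whether the 2 came from separate animals. The labels give 48 h of coculture, whereas the study's text gives a shorter time and a wider span of ages. There was no macrophage sample without tumor cells, so the values compare the genotypes within coculture only.

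AP-1 is a dimer. Jun proteins pair with themselves or with Fos proteins, and Fos proteins need a Jun partner, through a leucine zipper that holds a pair of basic DNA-contacting helices together. AP-1 dimers bind the TPA response element (TRE), and dimers with ATF or CREB proteins bind the cAMP response element (CRE). In macrophages these genes belong to the immediate-early response to Toll-like receptor ligands, cytokines and stress, in which MAP kinases raise their transcription and phosphorylate the proteins. ATF3 often represses inflammatory genes, BATF3 is best known from cross-presenting dendritic cells, and the small Maf proteins lack an activation domain and act as partners of CNC factors such as NRF2 and BACH1.

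Of the 10 genes, 4 rose in anti-Act1 BMDMs (Maff, Jun, Junb and Atf3), 2 fell (Fosb and Fos), and 4 did not pass the test (Jund, Fosl2, Batf3 and Mafk). The test was edgeR's quasi-likelihood test with Benjamini-Hochberg adjustment over all genes tested, at a threshold of 0.05. The background was high, since 20.7% of all genes tested were called, 10.9% higher and 9.76% lower. In 9 of the 10 genes the 2 anti-Act1 libraries did not overlap the 2 WT libraries in TMM-scaled CPM, the counts relative to library size, but this also held for 57.1% of all genes tested. Only Maff and Fosb moved by 0.5 or more on the log2 scale. The median log2 fold change (log2FC, anti-Act1 against WT) was 0.09 over the 10 genes and -0.0046 over all genes tested, and the median size without sign was 0.22 against 0.12.

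**Figure D1:**
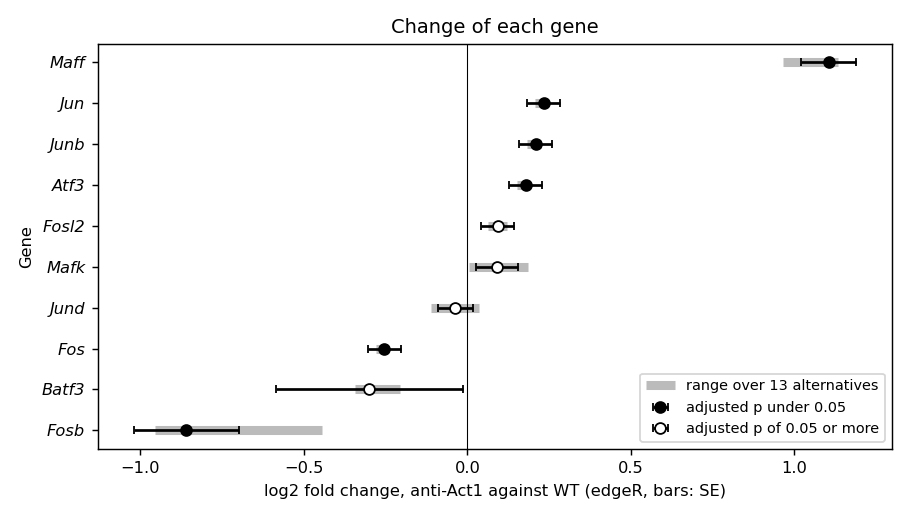
Log2FC of each gene in anti-Act1 against WT BMDMs from edgeR, with bars for the standard error (2 libraries per genotype). Filled points passed the adjusted threshold and gray bands span the 13 alternative analyses. Maff stands alone at 1.11 and Fosb at -0.86, while the other 8 lie between -0.30 and 0.23.

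The libraries held 55435063 to 75062945 counts, so 3 counts in a library equal 0.0395 to 0.0549 CPM. Traf3ip2 was not lower in the anti-Act1 libraries. Its counts were 451 and 572 in WT and 595 and 428 in anti-Act1, a log2FC of 0.27 (SE 0.12, edgeR adjusted p = 0.117), so the gene level gave no check of the genotype label. The study's own check of Act1 in BMDMs of these mice is outside these libraries and was not analysed here, and the promoter that drives the knockdown is not given in the sources used here. All 4 Y-linked genes examined stood at 34.8 to 97.0 CPM in WT and at 1 count or 0 in the anti-Act1 libraries. A difference in the sex of the mice and the genotype therefore cannot be told apart in any value given here. Macrophage markers were high in all 4 libraries, with a summed level of 25169 to 26644 CPM. Of the 10, 1 rose and 4 fell, Mrc1 by a log2FC of -0.63, where 20.7% of all genes tested were called. Epithelial markers that could show carried-over MC38 cells were low (summed 1.10 to 1.66 CPM). Lgals4 was the highest at 0.923 to 1.19 CPM, and Krt8, Krt18, Krt20, Cldn3 and Cldn4 were at 0 in every library. Neutrophil markers were low (summed 6.70 to 7.71 CPM). Of the 7 tested, 4 fell and 1 rose, where 9.76% of all genes tested fell and 10.9% rose. Those 4 were S100a9 with a log2FC of -1.42, Ngp with -2.21, Ltf with -1.58 and Retnlg with -3.95, and S100a8 rose by 0.66. The calls of Ngp, Ltf and Retnlg were lost without anti-Act1 replicate 2. Their part in the results on the bZIP genes was not tested. Of 19 tested dendritic cell, fibroblast, B cell, erythroid and mast cell genes, edgeR called 0 (1 at an unadjusted p under 0.05) and DESeq2 called 0. These 5 lists were put together as lists without a call, so the 0 follows from the grouping. Several of their genes had few counts, such as Hdc with 2 and 8 in WT and 10 and 9 in anti-Act1. Of 3 tested T and NK cell genes, Cd4 rose (log2FC 0.21, edgeR adjusted p = 0.0358), a gene that macrophages can also express. Cd2 and Lck did not pass, where 10.9% of all genes tested rose. Cd4 had 1636 to 1899 counts in a library, while Cd3d, Cd3e, Cd3g and Cd8a had at most 6 and were not tested.

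Upstream sequence is shown for 5 of the 6 genes that changed, to let the recognition sequences of the family, or of factors that act with it, be read at their starts. RefSeq gave 12 windows of 250 bases before an annotated start for the 10 genes (build GRCm38.p6, 10 of 10 genes matched, 3 windows for Maff). Stretches of 120 bases ending at the start site are given 5′ to 3′ on the gene's strand, except for Fosb. There the stretch ends 74 bases before the start, where a longer transcript begins. Capitals mark the CRE TGACGTCA in Maff, the 1-letter variant TTACGTCA in Atf3, the site TGACATCA in Jun, the CRE core TGACG in Fos and a match to the NF-κB (kB) site in Fosb.
Maff (start 2 of 3), chr15:79347400-79347519, plus strand: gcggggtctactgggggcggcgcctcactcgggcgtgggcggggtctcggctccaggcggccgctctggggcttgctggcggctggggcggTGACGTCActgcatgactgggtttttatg
Atf3, chr1:191183334-191183453, minus strand: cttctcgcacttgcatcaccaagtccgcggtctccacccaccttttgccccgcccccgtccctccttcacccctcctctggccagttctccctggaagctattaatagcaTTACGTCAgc
Jun, chr4:95052223-95052342, minus strand: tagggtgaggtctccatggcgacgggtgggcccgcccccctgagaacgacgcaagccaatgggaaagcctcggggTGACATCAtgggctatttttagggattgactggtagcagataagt
Fos, chr12:85473770-85473889, plus strand: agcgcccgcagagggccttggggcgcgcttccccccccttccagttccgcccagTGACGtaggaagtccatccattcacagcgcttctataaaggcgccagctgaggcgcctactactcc
Fosb, chr7:19310119-19310238, minus strand: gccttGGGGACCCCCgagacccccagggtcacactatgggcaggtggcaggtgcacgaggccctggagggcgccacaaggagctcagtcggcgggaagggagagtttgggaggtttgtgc

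Both strands were searched for each motif. The CRE began 29 bases before the Maff start, and 1.55% of all 32851 RefSeq windows of this length held one. The Atf3 variant began 10 bases before its start, and TNACGTCA, which includes the CRE, was in 2.52% of windows. TGACATCA began 45 bases before the Jun start and was also found at 45 bases before start 3 of Maff, against 2.93% of windows. The core TGACG, which lies inside the CRE and TTACGTCA, was at 129 and 66 bases before the Fos start and in 17.8% of all windows. It also occurred upstream of Fosb, Junb, Mafk and start 3 of Maff. The kB site was matched upstream of Fos, Fosb, Fosl2 and start 3 of Maff (3.90% of windows), and the antioxidant response core TGACNNNGC upstream of Mafk and start 1 of Maff (10.2% of windows). No window of the 10 genes held the TRE TGANTCA, which was in 6.75% of all windows. An 8-base match of the CRE type was found at Maff, Atf3 and Jun. Of the CRE type and core motifs, Junb, Fos, Fosb and Mafk held only the core, and Jund, Batf3 and Fosl2 held none. Start 2 of Maff was the start printed because it held the CRE. TNACGTCA leaves 1 letter of the CRE free and so admits the Atf3 variant. TGACATCA was searched as a site of the Jun promoter, so its match at Jun was set by that choice. Maff had more windows than any other gene, and the Fosb core, 60 bases before the start, lay inside the longer transcript. A link between motif and direction of change was not tested. All matches are letter matches in a short window and no binding was measured.

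**Figure D2:**
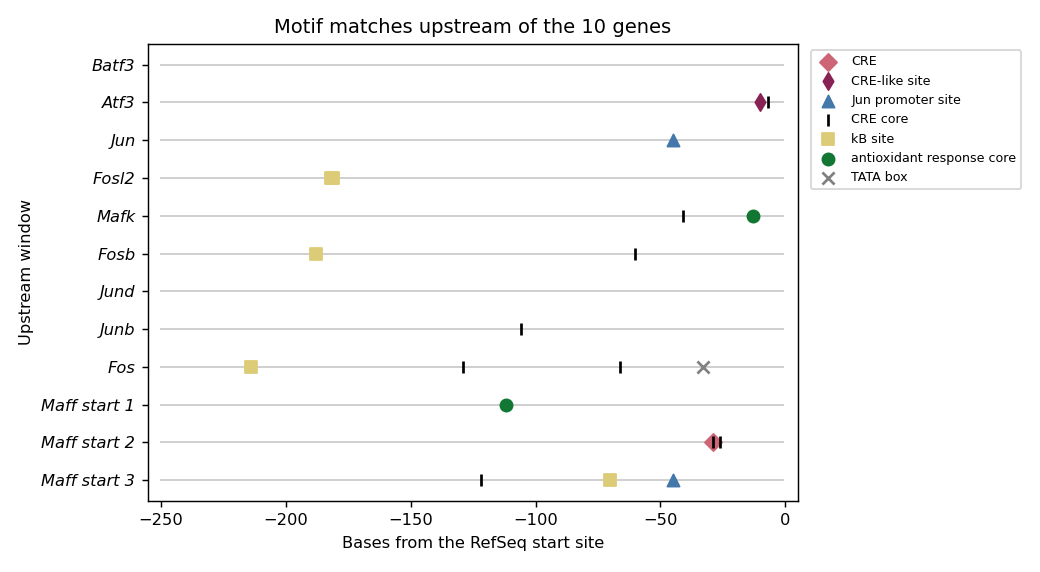
Motif matches in the 12 windows, drawn by the distance in bases from each RefSeq start site at 0, with gray lines spanning the 250 bases searched. The CRE at start 2 of Maff, the variant at Atf3 and the TGACATCA sites at Jun and at start 3 of Maff lie within 45 bases of a start, and the windows of Batf3 and Jund hold no match.

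Levels were compared between genes as FPKM, in which fragments are scaled to transcript length and to library size. The order was the same in all 4 libraries, namely Junb, Fos, Atf3, Jun, Jund, Fosl2, Mafk, Maff, Batf3 and Fosb from high to low. Junb led with 287 ± 4.41 FPKM in WT and 326 ± 3.91 in anti-Act1 (SD, n = 2), above 98.3% and 98.5% of all genes tested. Fosb was lowest at 1.38 ± 0.140 and 0.749 ± 0.0225 FPKM (SD, n = 2), above 21.7% and 17.0% of them. Maff moved furthest, from above 41.7% of genes tested in WT to above 60.0% in anti-Act1. In WT the ranges of neighbors in the order did not overlap in any pair, but Jund and Jun (99.5 to 103 against 110 to 111 FPKM) and Jun and Atf3 (119 to 121 FPKM) lay close. Maff came near Mafk in anti-Act1, at 12.4 to 12.9 against 14.3 to 14.5 FPKM.

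**Figure D3:**
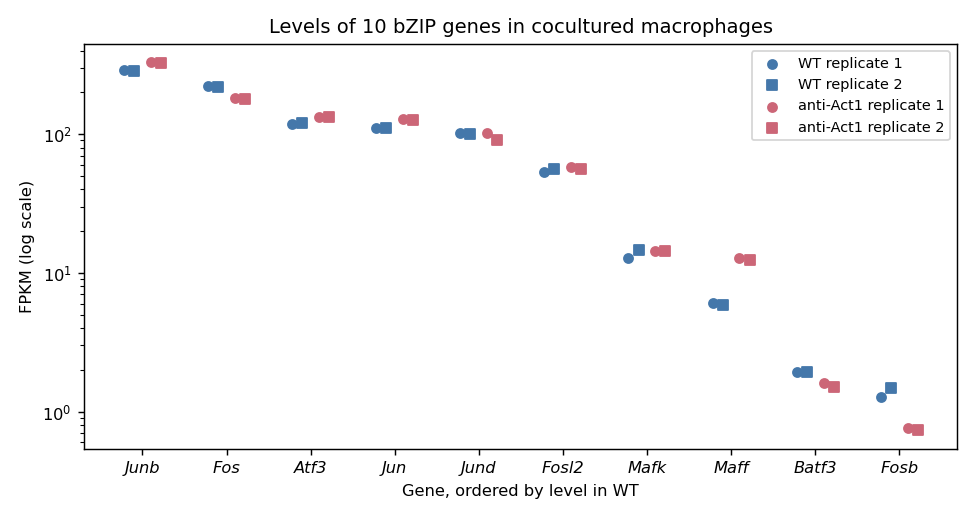
FPKM of each gene on a log axis in the 4 libraries, ordered by the WT mean, with WT in blue and anti-Act1 in red. The order is the same in every library, and the gap between genotypes is widest for Maff and Fosb.

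The Jun genes encode the partners that every AP-1 dimer needs. Jun, the founding member and a main substrate of the kinase JNK, stood at 348 and 351 CPM in WT and at 410 and 411 CPM in anti-Act1. The genotypes were apart by far more than the libraries within a genotype. Jun rose by 17.5% (log2FC 0.23, SE 0.05, edgeR adjusted p = 0.000374). Junb, a weaker activator than Jun that is strongly induced in activated macrophages, gave 531 and 517 CPM in WT and 607 and 604 CPM in anti-Act1. Both anti-Act1 values were again above both WT values. Junb rose by 15.6% (log2FC 0.21, SE 0.05, edgeR adjusted p = 0.00138), a call lost by unfiltered limma on log2(FPKM + 1) (adjusted p = 0.0658). Jund, the most constitutive of the 3, gave 293 and 283 CPM in WT and 295 and 266 CPM in anti-Act1, so the genotypes overlapped. Its log2FC was -0.04 (SE 0.05, edgeR adjusted p = 0.701) and turned to 0.037 without anti-Act1 replicate 2. Strand use in counting is not given in the sources used here, so reads of genes that overlap on the opposite strand cannot be told apart. Prdx2 shares 351 bases with Junb and itself gave a log2FC of 0.15 (edgeR adjusted p = 0.0448), while antisense transcripts lie over 689 bases of Jun and 919 bases of Jund. Of the other members, Atf3 shares 108 bases with a small RNA gene and Mafk 169 bases with Tmem184a, which had at most 3 counts in a library. The summed level of the 3 Jun genes was 503 and 495 FPKM in WT and 559 and 542 FPKM in anti-Act1. Within that sum Jund held 20.3% in WT and 17.6% in anti-Act1, and Junb 57.6% and 59.2%.

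Of the Fos genes, 2 of 3 fell. Fos, the prototype immediate-early gene, gave 459 and 455 CPM in WT and 384 and 382 CPM in anti-Act1. The 2 libraries of a genotype lay within a few CPM of each other and the genotypes did not overlap. Fos fell by 16.1% (log2FC -0.25, SE 0.05, edgeR adjusted p = 0.000107). Fosb, its close relative induced by the same stimuli, had 306 and 413 counts in WT and 176 and 151 in anti-Act1, or 4.74 and 5.44 against 2.85 and 2.77 CPM. Both anti-Act1 libraries were below both WT libraries. Fosb fell by 44.9% (log2FC -0.86, SE 0.16, edgeR adjusted p = 4.74e-05), the largest decrease of the 10 genes, from a level that was low to begin with. Fosl2, which encodes the later and more stable FRA-2, gave 310 and 323 CPM in WT and 341 and 334 CPM in anti-Act1. The values did not overlap, but the log2FC of 0.09 (SE 0.05, edgeR adjusted p = 0.209) did not pass the test. In FPKM, Fos made up 79.8% ± 0.591 of the 3 genes in WT and 75.8% ± 0.234 in anti-Act1, and Fosl2 19.7% ± 0.543 and 23.8% ± 0.230 (SD, n = 2).

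The ratio of Fos to Jun transcripts was lower in both anti-Act1 libraries than in both WT libraries. Fos over Jun in FPKM was 2.01 and 1.98 in WT and 1.43 and 1.42 in anti-Act1. Fos over Junb was 0.760 and 0.774 against 0.556 in both. The sum of the 3 Fos genes over the sum of the 3 Jun genes was 0.547 and 0.560 in WT and 0.432 and 0.437 in anti-Act1. These ratios did not overlap between genotypes, which follows from the separation of the levels that form them and adds no further evidence. The ratios were not tested, and an exact permutation test of 2 against 2 libraries cannot go below p = 0.333. They describe transcripts, not proteins or dimers.

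**Figure D4:**
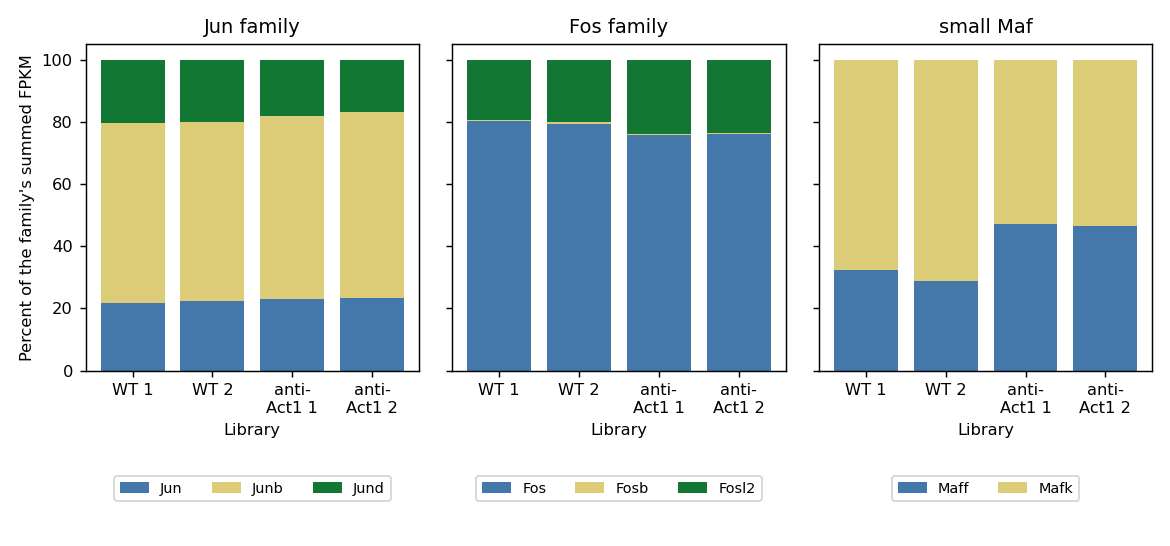
Share of each gene in the summed FPKM of its group (percent) in the 4 libraries. The sums hold 3 Jun genes, 3 Fos genes (without Fosl1) and 2 small Maf genes (without Mafg). Maff takes 32.2% and 28.6% of the sum of Maff and Mafk in WT and 47.2% and 46.4% in anti-Act1. Mafg stands above both in every library, at 22.1 to 25.8 FPKM, so these shares would be lower with Mafg included. Fosb is too low to be seen clearly in its panel.

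Atf3 encodes a CRE-binding factor that is induced by stress and limits Toll-like receptor responses. It gave 234 and 237 CPM in WT and 265 and 268 CPM in anti-Act1, without overlap. Atf3 rose by 13.2% (log2FC 0.18, SE 0.05, edgeR adjusted p = 0.00745). This call was the least firm of the 6. Leaving out anti-Act1 replicate 1 gave an adjusted p of 0.0562, leaving out anti-Act1 replicate 2 gave 0.108, and the adjusted p was 0.0625 by unfiltered limma on log2(FPKM + 1), while the log2FC stayed between 0.15 and 0.19 over the 13 alternatives. Batf3, the other gene of this kind, was barely expressed, with 89 and 104 counts in WT and 71 and 59 in anti-Act1. All anti-Act1 values lay below WT at 1.38 and 1.37 against 1.15 and 1.08 CPM, but the log2FC of -0.30 had an SE of 0.28 and an edgeR adjusted p of 0.524, so no difference was detected at these counts. The dendritic cell markers that could accompany Batf3 were also low. Their summed level was 5.56 to 6.36 CPM in WT and 5.34 to 5.68 CPM in anti-Act1. Of the 8 tested, 0 were called by edgeR or by DESeq2, where edgeR called 20.7% of all genes tested. None had an unadjusted edgeR p under 0.05. Several had few counts, such as Flt3 with 24 and 4 in WT and 8 and 10 in anti-Act1 (SE 0.72). A change in such genes could have been missed. In a bulk sample, fewer cells of a type and less RNA per cell cannot be told apart.

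Of the small Maf genes, Maff had the largest increase of the 10 genes and Mafk did not pass. Maff had 726 and 818 counts in WT and 1484 and 1272 in anti-Act1, or 11.2 and 10.8 against 24.0 and 23.3 CPM. The anti-Act1 values were about double the WT values in both libraries. Maff rose 2.15-fold (log2FC 1.11, SE 0.08, edgeR adjusted p = 9.21e-15). Over the 13 alternatives the log2FC ran from 0.97 to 1.13 and all 13 kept the call. Reads were counted per gene, so the values do not say which of the 3 Maff starts they came from. Mafk, which encodes a protein with the same DNA-binding preference, gave 45.2 and 51.3 CPM in WT and 51.4 and 51.5 CPM in anti-Act1. WT replicate 1 was low and the other 3 libraries were alike. Its log2FC of 0.09 (SE 0.06, edgeR adjusted p = 0.348) became 0.0038 without WT replicate 1 but 0.19 when the other WT library was dropped. The ratio of Maff to Mafk in FPKM was 0.474 and 0.401 in WT and 0.892 and 0.864 in anti-Act1. Mafg, the remaining small Maf gene, was higher than both at 23.3 and 22.1 FPKM in WT and 25.8 and 24.8 FPKM in anti-Act1. It passed the test with a log2FC of 0.18 (SE 0.05, edgeR adjusted p = 0.0103), a call lost in 6 of 13 alternatives, among them on leaving out WT replicate 2 (0.117) or either anti-Act1 library (0.142 for replicate 1, 0.0509 for replicate 2).

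The CNC partner genes of the small Maf proteins did not move in 1 direction. Nfe2l2, which encodes the antioxidant regulator NRF2, gave 347 and 357 CPM in WT and 334 and 333 CPM in anti-Act1, a log2FC of -0.08 (edgeR adjusted p = 0.306). Bach1, the heme-sensing repressor that competes with NRF2 for small Maf partners, gave 184 and 195 CPM in WT and 169 and 170 CPM in anti-Act1. Bach1 fell, with a log2FC of -0.16 (edgeR adjusted p = 0.0196), and the call was lost on leaving out WT replicate 2 (0.169) or either anti-Act1 library (0.161 for replicate 1, 0.143 for replicate 2) and by unfiltered limma (0.0804). Nfe2l1, a relative of Nfe2l2, rose (log2FC 0.19, edgeR adjusted p = 0.00425), with the call held in 10 of 13 alternatives and lost without anti-Act1 replicate 1 (0.0589) or replicate 2 (0.0523). Bach2, a relative of Bach1, also rose (log2FC 0.29, edgeR adjusted p = 0.0436), with the call held in 4 of 13 and lost on leaving out any 1 library (adjusted p of 0.146 and 0.0892 for WT replicates 1 and 2, 0.0602 and 0.264 for anti-Act1 replicates 1 and 2). Of 20 target genes of NRF2 and small Maf dimers, 8 rose, 2 fell and 10 did not pass (20.7% of all genes tested were called), with a median log2FC of 0.15. Slc7a11, the cystine transporter, stood at 37.1 and 38.9 CPM in WT and 58.6 and 53.0 CPM in anti-Act1 (log2FC 0.55, edgeR adjusted p = 1.91e-09). Nqo1, a quinone reductase, had only 37 and 49 counts in WT and 68 and 95 in anti-Act1. Its log2FC was 1.21 (edgeR adjusted p = 0.00655), and the call was lost without anti-Act1 replicate 2 (0.232) and by unfiltered limma (0.0817).

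Other bZIP genes were examined as relatives and possible dimer partners. Of 33 listed, 32 were tested, and 10 rose, 6 fell and 16 did not pass (20.7% of all genes tested were called), with a median log2FC of 0.09. Fosl1, the remaining Fos gene, was scarce at 15 and 9 counts in WT and 38 and 30 in anti-Act1, or 0.0703 to 0.360 FPKM, far below Fos in every library. It rose with a log2FC of 1.75 (SE 0.53, edgeR adjusted p = 0.0127), and the call was lost in 4 of 10 alternatives, with an adjusted p of 0.0749 by DESeq2, 0.203 on leaving out WT replicate 2, and 0.135 and 0.0702 on leaving out anti-Act1 replicate 1 or replicate 2. Batf, a partner of Jun proteins related to Batf3, gave 8.03 and 7.68 CPM in WT and 9.15 and 8.04 CPM in anti-Act1 and did not pass (log2FC 0.13, edgeR adjusted p = 0.492). Jdp2, a Jun-binding repressor, gave 24.4 and 21.7 CPM against 27.3 and 25.5 CPM and narrowly missed the threshold (log2FC 0.20, edgeR adjusted p = 0.0551, passed in 2 of 13 alternatives). Atf5, a stress-responsive ATF gene, rose from 36.7 and 34.9 to 52.4 and 53.0 CPM (log2FC 0.56, edgeR adjusted p = 1.12e-09). Cebpb, a bZIP regulator of macrophage genes, gave 351 and 212 CPM in WT and 170 and 133 CPM in anti-Act1. The WT libraries differed from each other by more than WT replicate 2 differed from anti-Act1 replicate 1. Cebpb fell with a log2FC of -0.89 (SE 0.10, edgeR adjusted p = 1.09e-09), but this was -0.48 without WT replicate 1, and the adjusted p was 0.118 with DESeq2 and 0.131 by unfiltered limma.

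**Figure D5:**
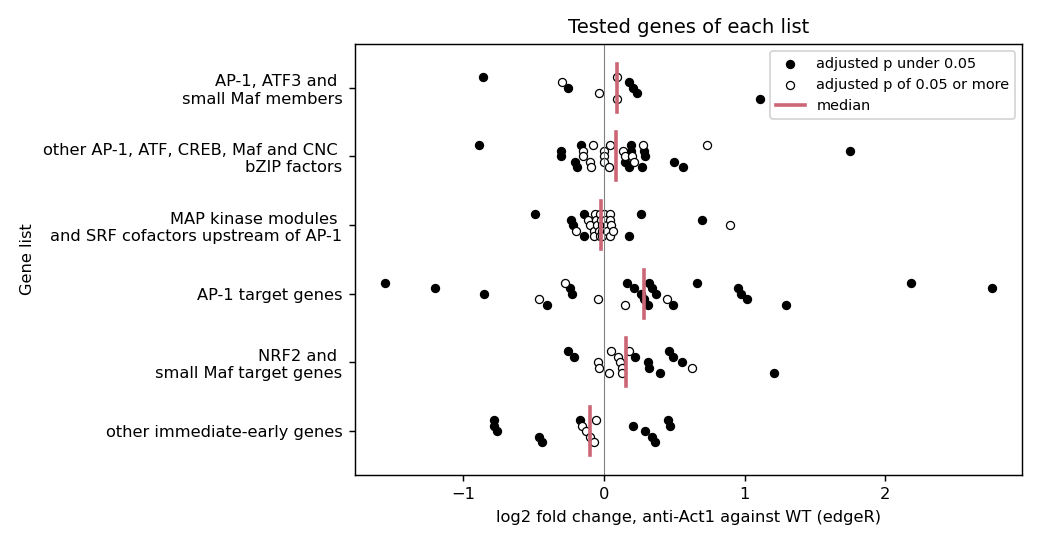
Log2FC of each tested gene in the 6 lists (10 bZIP genes, 32 relatives, 33 upstream genes, 27 AP-1 target genes, 20 NRF2 and small Maf targets and 17 other immediate-early genes), with filled points past the adjusted threshold and red bars at the medians. Upstream genes crowd around 0, while AP-1 target genes spread widely to both sides. NRF2 and small Maf targets run from -0.26 to 1.21.

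MAP kinase modules and serum response factor (SRF) cofactors raise and activate AP-1. Of 35 such genes listed, 33 were tested, and 3 rose, 5 fell and 25 did not pass, a share called close to the 20.7% of all genes tested, with a median log2FC of -0.02. The gene both called and past 0.5 on the log2 scale was Map2k6, an activator of p38 kinases, at 4.21 and 4.62 CPM in WT and 7.89 and 6.43 CPM in anti-Act1 (log2FC 0.70, SE 0.14, edgeR adjusted p = 0.00013), a call lost by unfiltered limma (adjusted p = 0.073). These are transcript levels, and the phosphorylation that switches the kinases on was not measured.

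Other immediate-early genes, induced by the same signals as Fos and Jun, moved in both directions. Of 18 listed, 17 were tested, and 6 rose, 6 fell and 5 did not pass (20.7% of all genes tested were called), with a median log2FC of -0.10. The 3 named by size all fell, while the largest rise in the list, a log2FC of 0.47, lay just under the size limit of 0.5. Nr4a1, an orphan nuclear receptor gene, went from 14.6 and 13.0 CPM in WT to 7.82 and 8.20 CPM in anti-Act1 (log2FC -0.79, edgeR adjusted p = 6.55e-08). Egr2, a zinc finger factor, had 806 and 912 counts in WT and 474 and 357 in anti-Act1 (log2FC -0.78, edgeR adjusted p = 2.65e-07). Myc, the growth regulator, went from 3.67 and 3.76 to 2.36 and 2.01 CPM (log2FC -0.76, edgeR adjusted p = 0.00161). All 3 decreases were close in size to that of Fosb, but the 3 genes were named for passing the size limit. The other genes of the list that fell had smaller decreases, namely Egr1 (log2FC -0.46), Btg2 (-0.44) and Ier5 (-0.17). A difference between these genes and Fosb was not tested.

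Genes known as AP-1 targets moved in both directions. Of 28 listed, 27 were tested, and 16 rose, 6 fell and 5 did not pass, where 10.9% of all genes tested rose and 9.76% fell. The median log2FC was 0.29. Many of them also answer to NF-κB, STAT and other factors. Plau, which encodes urokinase, fell from 89.0 and 89.3 to 36.7 and 40.6 CPM (log2FC -1.21, edgeR adjusted p = 3.49e-21). Ccnd1, the G1 cyclin, fell from 13.1 and 13.5 to 4.13 and 4.93 CPM (log2FC -1.55, edgeR adjusted p = 9.11e-15). Among those that rose, the 3 named by adjusted p went to about double, but the log2FC in the list reached 2.76. Tnf had a log2FC of 1.02 (SE 0.11), Ptgs2, the inducible prostaglandin synthase, 0.97 (SE 0.07), and Mmp9, a gelatinase, 0.96 (SE 0.08), with edgeR adjusted p of 3.29e-10, 1.26e-14 and 9.95e-13. No binding of AP-1 was measured, and the list shares Hmox1 and Fth1 with the NRF2 targets.

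The genes whose profile over the 4 libraries lay nearest to Maff and Fosb were sought by the distance between log2 CPM values centered on their mean. Nearest to Maff were Clmp (distance 0.0682), Vldlr (0.0967) and H2-Q7 (0.0993), and nearest to Fosb were P2ry13 (0.0614), Pdgfc (0.0743) and Slc9a9 (0.0775). Vldlr, the very low density lipoprotein receptor gene, gave 8.27 and 8.43 CPM in WT and 18.7 and 18.8 CPM in anti-Act1. P2ry13, an ADP receptor gene, gave 5.94 and 6.50 CPM in WT and 3.50 and 3.30 CPM in anti-Act1, and shares with Fosb the higher value in WT replicate 2. The likeness rests on 4 libraries and describes them only.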

How the data were processed

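RNA was measured in 4 libraries of cocultured BMDMs (NEBNext Ultra RNA kit, paired-end Illumina reads per the study's methods). The authors deposited whole-number read counts per gene and FPKM values for the same libraries. The submitters' processing notes name Bowtie 0.12.2 and HTSeq 0.6.1 and the builds mm8 and mm10, without their roles, whereas the study's methods describe cleaned reads aligned with TopHat on a Bowtie index. Strand use in counting is not given in the sources used here.

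Genes were filtered with filterByExpr, scaled by TMM and tested with edgeR 4.0.16 (glmQLFit and glmQLFTest, genotype as the only term, R 4.3.3) on the counts as deposited. P-values were Benjamini-Hochberg adjusted over 12494 genes, and 0.05 was the threshold. CPM are TMM-scaled. P-values measure the spread between these libraries, which the study calls biological replicates and for which no separate animals are named. The model was tested on simulated data. Alternatives were DESeq2 1.42.0, DESeq2 size factors, no composition normalization, no filter, a minimum of 10 counts in every library, limma 3.58.1 on log2(FPKM + 1) and log2(FPKM + 0.1), a replicate block, and each library left out.

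The 10 genes and all lists were chosen with earlier results of these data known. From the other lists, genes were named if the adjusted p passed and the log2 fold change was at least 0.5 in size, at most 6 per list by adjusted p, plus Mafg, Fosl1, Nfe2l2, Bach1, Batf and Jdp2 in any case. Of these, 1 gene that this rule names is not reported here. The 3 nearest profiles were named for each member called at 0.5 or more. Cd4, Prdx2, Nfe2l1, Bach2 and genes at 0 were named after their values were seen. Of the names listed, 27 were date-like from a spreadsheet and 2 stood on 2 lines; none is among the 10.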

Additional observations from a re-analysis of the deposited data

How the results depend on the processing

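All 13 alternatives kept Jun, Fos, Fosb and Maff past the threshold in the same direction. Between 4 and 6 of the 10 genes were called, fewest by unfiltered limma on log2(FPKM + 1), where Junb (adjusted p = 0.0658) and Atf3 (0.0625) were lost, and 5 without either anti-Act1 library, where Atf3 was lost. Of the 10 genes Jund alone turned direction, from -0.11 to 0.037 as a log2 fold change on leaving out anti-Act1 replicate 1 or replicate 2. The count over all genes tested, 2586, became 1091 by that limma analysis, 1986 with DESeq2 and 1671 to 2543 on leaving out each library in turn, lowest when anti-Act1 replicate 2 (1671) or replicate 1 (1712) was dropped. A library left alone in its group was taken to vary like the other group. Library differences between replicates 1 and 2 were unrelated across the genotypes (r = -0.0298 across 12494 genes, which are not independent replicates), so the numbers do not pair the samples. The fit with the replicate block called 2406 genes and the same number of the 10 genes, 6. Without composition normalization 1105 genes were higher and 1411 lower, against 1366 and 1220, and the calls among the 10 stood at 4 higher and 2 lower. Traf3ip2 passed only without anti-Act1 replicate 2 (log2 fold change 0.41, adjusted p = 0.0343). DESeq2 gave no adjusted p for Retnlg. The cause of these changes was not tested, beyond the smaller number of libraries. Batf3, Fosl1 and Nqo1 had at most 104 counts in a library, and depth limits their precision.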
